A study of Mus musculus with 44 samples.

Results

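Transcripts of the cardiac natriuretic peptide system were followed across 44 left ventricles, each measured on 1 Affymetrix 430A 2.0 array. The genes were Nppa and Nppb, which encode the peptides, Corin, which encodes a processing protease, and Npr1, Npr2 and Npr3, which encode the receptors. All probe sets annotated with 1 of these 6 symbols were taken, which gave 8 of the 22690 probe sets and 6 of the 12394 genes with a probe set of their own. Npr3 had 3 probe sets and the other genes had 1 each, and each gene is given by its probe set of largest SD over the 44 arrays.

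There were 12 PKCε transgenic mice given FG-3149, 10 PKCε transgenic mice given IgG, 12 nontransgenic FVB/N mice given FG-3149 and 10 nontransgenic FVB/N mice given IgG, called FVB below. The transgene is a constitutively active rabbit protein kinase C epsilon, driven in heart muscle cells by the mouse Myh6 promoter, which is active in atrial and ventricular muscle of the adult mouse, on the FVB/N strain. FG-3149 is an antibody to CTGF, the connective tissue growth factor, and the IgG was nonimmune mouse IgG. Both were injected into the peritoneum at 30 mg/kg, 2 times per week for 3 months from 3 months of age, and tissue was taken at 6 months. The labels gave 6 females and 6 males in each FG-3149 group, 5 and 5 among PKCε IgG mice, and 7 females and 3 males among FVB IgG mice. No group without injections was part of these data.

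Nppa encodes the precursor of atrial natriuretic peptide and Nppb that of B-type natriuretic peptide, hormones that heart muscle releases when it is stretched and that lower blood volume and pressure. Corin is a serine protease on the surface of heart muscle cells that cuts the Nppa product into its active form. Npr1 and Npr2 are receptors that make cyclic GMP, Npr1 for the Nppa and Nppb products and Npr2 for the C-type peptide of Nppc, whereas Npr3 mainly takes the peptides up and removes them. In adult mice Nppa is expressed far more in atrial than in healthy ventricular muscle, and both peptide genes are known to be induced in the stressed ventricle.

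The promoters of the peptide genes are shown because both of these neighbouring genes of chromosome 4 were higher in PKCε than in FVB hearts under either treatment. The sequences are the 250 bases before the annotated starts in RefSeq's GRCm38.p6 table, both on the plus strand, chr4:148000472-148000721 for Nppa and chr4:147985650-147985899 for Nppb. Capitals mark matches, on either strand, to the letters of sites named after the T-box, NKX2-5, GATA and TEAD families of cardiac transcription factors.
Nppa: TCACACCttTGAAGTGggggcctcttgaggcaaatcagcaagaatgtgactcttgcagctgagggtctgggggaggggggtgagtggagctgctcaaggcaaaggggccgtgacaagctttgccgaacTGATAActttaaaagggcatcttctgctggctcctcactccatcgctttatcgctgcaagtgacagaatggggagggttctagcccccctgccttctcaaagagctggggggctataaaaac
Nppb: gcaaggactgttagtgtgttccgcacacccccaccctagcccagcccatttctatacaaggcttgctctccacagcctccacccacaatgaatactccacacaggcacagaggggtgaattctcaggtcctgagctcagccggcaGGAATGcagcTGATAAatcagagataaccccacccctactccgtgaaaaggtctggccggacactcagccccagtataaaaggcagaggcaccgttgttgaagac
The Nppa window held TCACACC (T-box) from -250 to -244 and TGAAGTG (NKX2-5, searched as TNAAGTG) from -241 to -235, counted from the start, and TGATAA, for GATA factors, from -122 to -117. The Nppb window held GGAATG, the reverse complement of CATTCC (TEAD), from -105 to -100, and TGATAA from -95 to -90. No match overlapped another. Of 32851 promoter windows of this length, 3.33% held TCACACC, 10.06% TNAAGTG, 7.94% TGATAA and 12.64% CATTCC. The AP-1 letters TGANTCA, in 6.75% of windows, and the E-box CACGTG, in 6.02%, had no match in either window. Nor did the strict forms of the CArG and MEF2 motifs, in 1.47% and 0.51% of windows. The promoter windows of Corin, Npr1, Npr2 and Npr3 held none of the 8 motifs. Looser forms of a motif were not searched, so that AGATAA in the Nppb window is not marked and near matches to CArG or MEF2 were not counted. Such matches describe letters and not bound sites.

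The deposited values were ratios to each probe set's median over the arrays, so they rank arrays for 1 gene and give no level of one gene against another. All values below are log2 of these ratios, and brightness relative to background is not used here because the ratios do not hold it. The ventricles differed in how much atrial muscle RNA they carried. The atrial level averages the log2 ratios of 3 genes, Sln (sarcolipin) and the atrial myosin light chains Myl7 and Myl4, and ran from -2.70 to 7.14 in PKCε FG-3149 hearts, from -1.80 to 6.86 in PKCε IgG hearts, from -2.97 to 4.40 in FVB FG-3149 hearts and from -1.16 to 8.47 in FVB IgG hearts. It exceeded 4 on 10 arrays, of which 2, 2, 1 and 5 lay in these groups in the same order. The 3' minus 5' difference of the Gapdh control probe sets, a sign of RNA quality, averaged 0.04 ± 0.11 in PKCε FG-3149 hearts (SD, n = 12) against 0.30 ± 0.25 in PKCε IgG hearts (SD, n = 10), with a difference of -0.26 (permutation p = 0.00068, Benjamini-Hochberg adjusted p = 0.00408 over 12 tests). It also differed by 0.33 between PKCε IgG and FVB IgG hearts (permutation p = 3e-05, adjusted p = 0.00036). The Y-linked gene Uty stood at a log2 ratio of 3.63 in replicate 11 of the FVB FG-3149 hearts, whose label is female, and leaving that array out changed 1 call, that of the Npr3 interaction given below (adjusted p = 0.0544). The labels say that the mice of a group are biological replicates, but the mouse numbers run in largely separate blocks by group, and the order of handling cannot be told apart from the group.

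**Figure D1:**
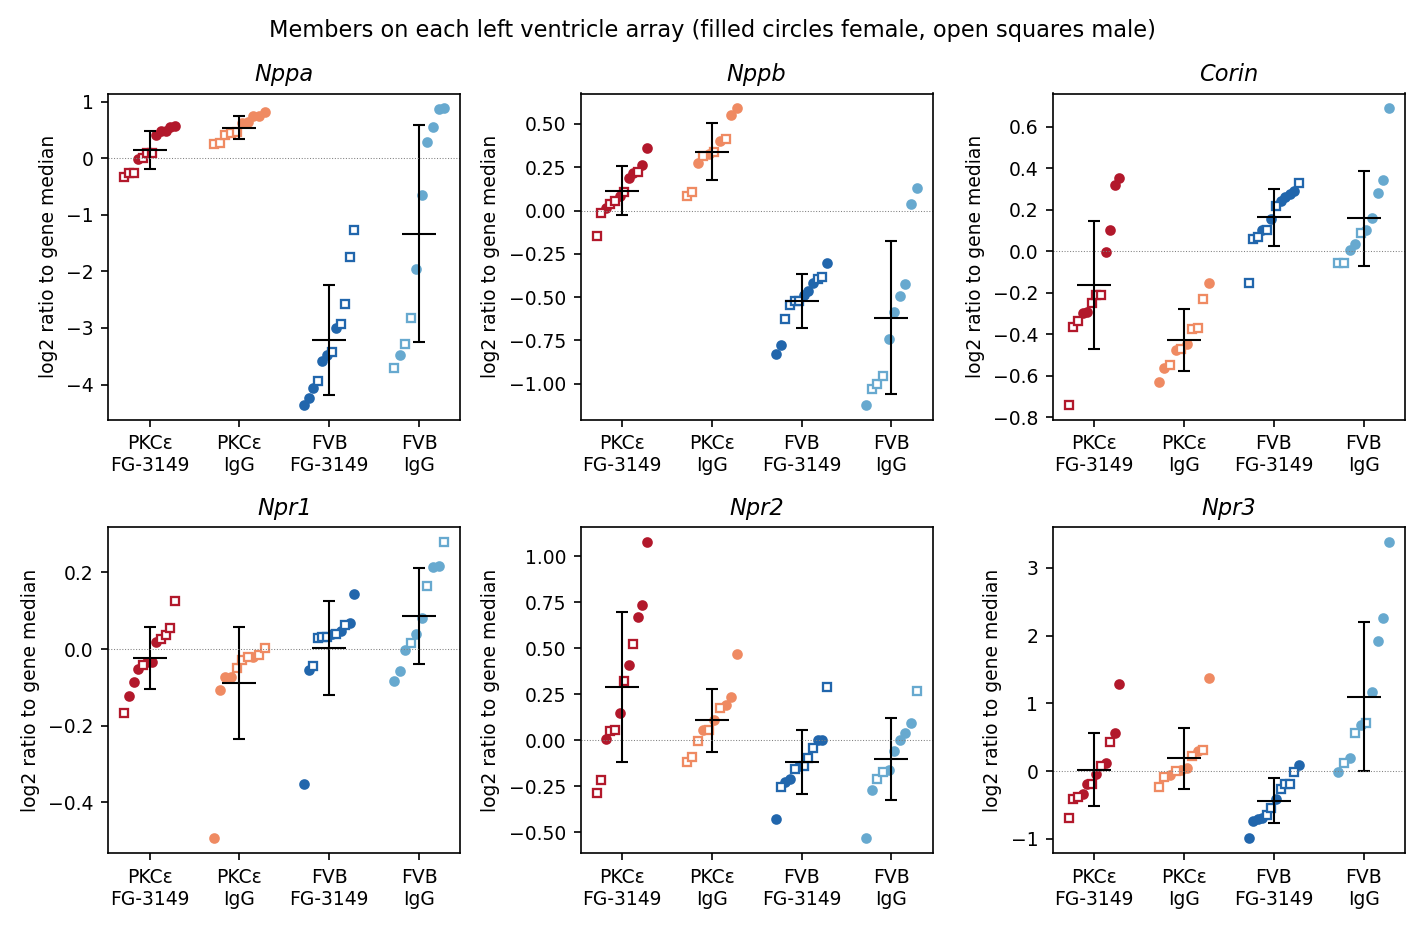
Log2 ratio to the gene's median over 44 arrays (vertical axis) for the 6 genes on every array of the 4 groups (horizontal axis); filled circles are female, open squares male, and the bar and whiskers are the mean ± SD. The PKCε hearts were tightly grouped for Nppa, between -0.33 and 0.82, while the FVB IgG hearts spread from -3.71 to 0.89.

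The first comparison asked what the transgene did under control IgG. Nppb and Nppa, the peptide genes, were higher in hearts of PKCε IgG mice than of FVB IgG mice, and Corin, Npr1 and Npr3 were lower. So 5 of the 6 genes passed the limma test at an adjusted p under 0.05, 2 of them higher and 3 lower. Of all 12394 genes, 42.2% passed, 20.7% higher and 21.5% lower, so a call alone did not set a gene apart in this comparison. The genes' median difference was 0.02, against -0.05 over all genes. In bulk tissue, fewer cells of a type and less RNA per cell cannot be told apart.

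Nppb had log2 ratios of 0.08, 0.33 and 0.59 (lowest, median and highest) in PKCε IgG hearts, against -1.12, -0.66 and 0.13 in FVB IgG hearts. Of the 10 PKCε IgG hearts, 8 lay above every FVB IgG heart. The difference was 0.99 ± 0.10 (log2, SE), or 1.99-fold, with an adjusted p of 2.57e-10 by limma.

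Nppa had log2 ratios of 0.25, 0.54 and 0.82 in PKCε IgG hearts, against -3.71, -1.31 and 0.89 in FVB IgG hearts. All 10 PKCε IgG hearts lay above the FVB IgG median, but none lay above every FVB IgG heart, since 2 FVB IgG hearts were higher than all of them. The difference was 1.97 ± 0.46 (SE), or 3.91-fold (limma, adjusted p = 0.000523). It was 3.64 ± 0.57 in males, 12.5-fold, where the 3 FVB IgG hearts had -3.71, -3.28 and -2.82, and 1.22 ± 0.46 in females. In males 14.5% of all genes passed and in females 42.3%. The female estimate minus the male one was -2.43 ± 0.73 (limma, p = 0.00201, adjusted p = 0.316), in a test that 0.0807% of genes passed, so the difference between the sexes did not pass. The atrial level was above 4 in 5 FVB IgG hearts, all female, and without the 10 arrays above 4 the difference over both sexes was 3.58.

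Corin had log2 ratios of -0.63, -0.46 and -0.15 in PKCε IgG hearts, against -0.06, 0.10 and 0.69 in FVB IgG hearts. The groups did not overlap, and how many of all genes had no overlap was not counted. The difference was -0.55 ± 0.09 (SE; limma, adjusted p = 2.99e-06), which put Corin at 68.2% of its FVB IgG level. The protease gene was thus lower in the group in which the gene of its substrate was higher on average. The relation of Corin to Nppa from heart to heart was not tested.

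Npr3 had log2 ratios of -0.24, 0.03 and 1.37 in PKCε IgG hearts, against -0.02, 0.70 and 3.39 in FVB IgG hearts. The difference of -0.85 ± 0.28 (SE; limma, adjusted p = 0.0132) rested on its most variable probe set. The other probe sets gave -0.31 ± 0.23 (adjusted p = 0.268) and -0.42 ± 0.23 (adjusted p = 0.131). Without the arrays of atrial level above 4 the first probe set gave -0.28 (adjusted p = 0.161), and in a fit of these groups alone, which 40.6% of genes passed, it gave -0.80 (adjusted p = 0.0709).

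Npr1 differed by less, with a difference of -0.19 ± 0.05 (SE; limma, adjusted p = 0.00367). Its log2 ratios were -0.49, -0.04 and 0.0026 in PKCε IgG hearts, against -0.08, 0.06 and 0.28 in FVB IgG hearts. Its SD over all arrays was larger than that of only 18.0% of all 22690 probe sets. Npr2, the receptor of the C-type peptide, differed by 0.23 ± 0.12 and did not pass (limma, adjusted p = 0.0991). Without FVB IgG replicate 6 the Npr2 difference was 0.29 (adjusted p = 0.0406).

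Counts of the related lists in the same comparison stand beside the 42.2% of all genes that passed, and no list was tested against the other genes. Of 8 measured genes for other ligands and for peptide processing and breakdown, 2 were higher and 3 lower, with a median difference of -0.09. Pcsk6, a proprotein convertase known to activate corin, was higher by 0.46 ± 0.06 (SE; adjusted p = 1.27e-07). Mme, neprilysin, which degrades natriuretic peptides, was lower (-0.89 ± 0.14, adjusted p = 1.02e-06), and Fap, a surface protease of activated fibroblasts, was higher by 0.57 ± 0.10 (adjusted p = 2.38e-05). All 5 measured fibroblast markers were also higher in PKCε IgG hearts, and the part of fibroblast content in the Fap difference was not tested.

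Of 17 measured genes of cyclic GMP signalling, 4 were higher and 3 lower, with a median of -0.02. Prkg1, the cyclic GMP-dependent kinase, was higher by 0.82 ± 0.09 (SE; limma, adjusted p = 1.42e-09). Rgs2, a regulator of G protein signalling that this kinase phosphorylates, was lower (-1.13 ± 0.19, adjusted p = 6.39e-06), and Pde1a, a phosphodiesterase that degrades cyclic nucleotides, was higher by 0.60 ± 0.13 (adjusted p = 0.000149).

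Of 25 measured transcription factors and cofactors known to act on the peptide promoters, 3 were higher and 9 lower, with a median of -0.13. The 3 with the lowest p were Hopx, a homeodomain cofactor without DNA binding of its own (-1.30 ± 0.12, adjusted p = 3.2e-11), Mef2a (-0.60 ± 0.11, adjusted p = 3.75e-05) and Nfatc4, a calcineurin target (0.62 ± 0.13, adjusted p = 9.13e-05). All 5 measured genes of a ventricular stress list were higher, with a median of 1.30, led by Myh7, the fetal myosin heavy chain, at 3.22 ± 0.13 (adjusted p = 5.05e-22). Of the 10 atrial muscle markers 4 were lower and none higher, while Sln, Myl7 and Myl4 themselves did not pass (adjusted p between 0.0504 and 0.146).

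**Figure D2:**
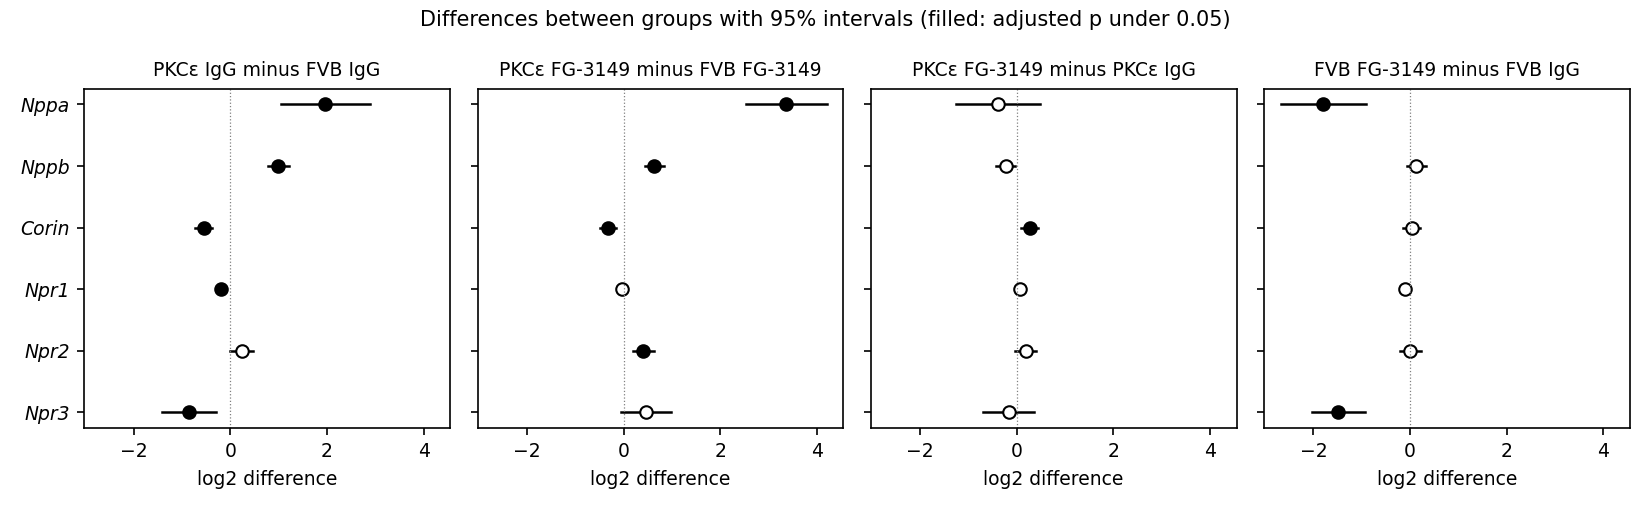
Log2 difference (horizontal axis) with its 95% interval for the 6 genes (rows) in the 4 comparisons between groups; filled points had an adjusted p under 0.05 by limma. The peptide genes lay to the right of 0 and Corin to the left in both comparisons of PKCε with FVB hearts.

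The same comparison under FG-3149 left no overlap for the peptide genes, and how many of all genes had no overlap was not counted. Of all genes, 47% passed between PKCε FG-3149 and FVB FG-3149 hearts, 21.5% higher and 25.5% lower, and of the 6 genes Nppa, Nppb and Npr2 were higher and Corin was lower, with a median difference of 0.43 against -0.05 over all genes. Nppa had log2 ratios of -0.33, 0.09 and 0.58 in PKCε FG-3149 hearts, against -4.36, -3.45 and -1.27 in FVB FG-3149 hearts. All 12 PKCε hearts lay above all 12 FVB hearts, by 3.37 ± 0.41 on average (SE; limma, adjusted p = 1.23e-08), or 10.3-fold.

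Nppb had log2 ratios of -0.15, 0.09 and 0.36 in PKCε FG-3149 hearts, against -0.83, -0.51 and -0.30 in FVB FG-3149 hearts. The groups did not overlap for this gene either. The difference was 0.64 ± 0.09, or 1.56-fold (SE; limma, adjusted p = 5.12e-07).

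Npr2 had log2 ratios of -0.29, 0.23 and 1.08 in PKCε FG-3149 hearts, against -0.43, -0.14 and 0.29 in FVB FG-3149 hearts, with 6 of the 12 PKCε hearts above every FVB heart. Its difference was 0.41 ± 0.11 (SE; limma, adjusted p = 0.00167), and males alone gave 0.14 (adjusted p = 0.451). Corin had log2 ratios of -0.74, -0.23 and 0.35 in PKCε FG-3149 hearts, against -0.15, 0.19 and 0.33 in FVB FG-3149 hearts. Its difference was -0.33 ± 0.08 (adjusted p = 0.00126), with 8 of the 12 PKCε hearts below every FVB heart, and females alone gave -0.19 (adjusted p = 0.201).

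Npr1 (-0.03 ± 0.05, adjusted p = 0.661) and Npr3 (0.46 ± 0.25, adjusted p = 0.127) did not pass between the FG-3149 groups. In a fit of these groups alone, which 48.4% of genes passed, Npr3 did pass (0.46, adjusted p = 0.033). Of the other ligand and processing genes 2 were higher and 1 lower, of the cyclic GMP genes 4 were higher and 3 lower, of the promoter regulators 6 were higher and 8 lower, and of the ventricular stress genes 5 of 5 were higher. Pcsk6 (0.50), Mme (-0.66) and Fap (0.45) again had the lowest p in the first list, and Prkg1 (0.83) in the second.

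The effect of the antibody in the transgenic line was small for these genes. Between PKCε FG-3149 and PKCε IgG hearts 8.82% of all genes passed, 5.08% higher and 3.74% lower, and Corin was the only 1 of the 6 genes to pass, with a higher value. The genes' median difference was -0.05, against 0.02 over all genes. Corin's log2 ratios, given above for each group, put 11 of 12 PKCε FG-3149 hearts above the PKCε IgG median and 4 above every PKCε IgG heart. The difference was 0.26 ± 0.09 (SE; limma, adjusted p = 0.0422). This call was lost when any 1 of 12 single arrays was left out (adjusted p up to 0.102) and with the Gapdh 3' minus 5' difference as a covariate (0.21, adjusted p = 0.247). Without the arrays of atrial level above 4 Corin gave 0.13 (adjusted p = 0.332).

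The Corin difference was larger in females, although the test between the sexes did not pass. PKCε females had a Corin mean of 0.03 ± 0.28 under FG-3149 (SD, n = 6) against -0.45 ± 0.18 under IgG (SD, n = 5), a difference of 0.48 ± 0.11 (SE; limma, adjusted p = 0.0045, where 10.3% of all genes passed). Replicates 9 and 10 of these IgG females carried lung markers, with Sftpc (9.32 and 3.53) and Scgb1a1 (10.11 and 3.71) both above 3. Without these arrays the Corin difference over both sexes was 0.27 (limma, adjusted p = 0.089). PKCε males had -0.35 ± 0.20 under FG-3149 (SD, n = 6) against -0.40 ± 0.12 under IgG (SD, n = 5), a difference of 0.05 ± 0.11 (SE), which did not pass (0.0565% of genes did). The female difference minus the male one was 0.44 ± 0.16 (p = 0.00974), which did not pass over all genes (limma, adjusted p = 0.438), as in all but 0.0161% of genes. The pair of PKCε FG-3149 hearts with an atrial level above 4, both female, had the highest Corin values of their group, 0.35 and 0.32.

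**Figure D3:**
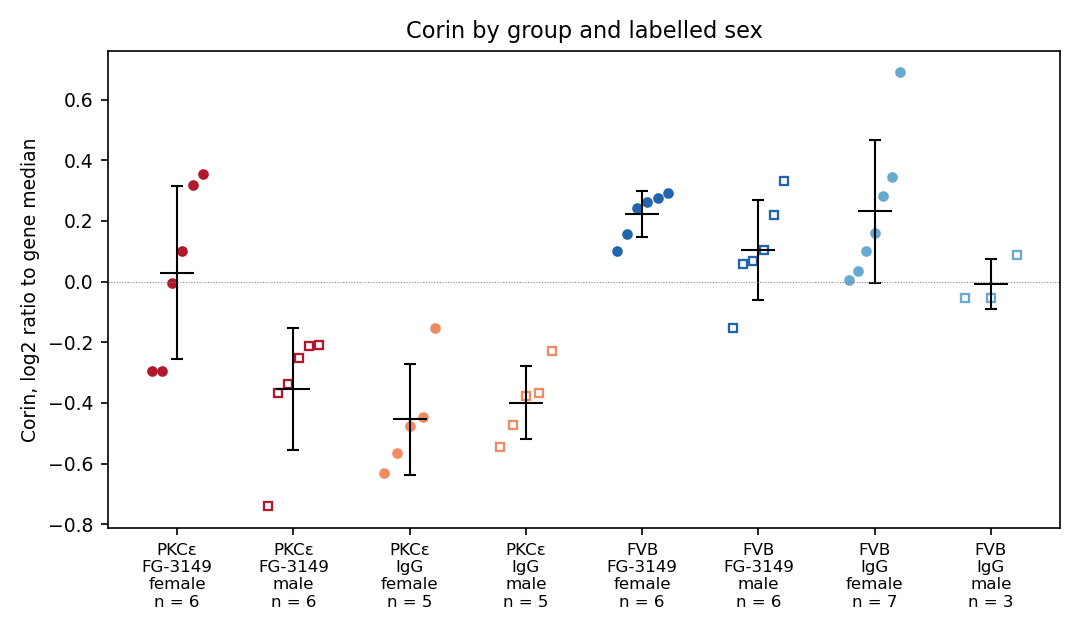
Corin log2 ratio to its median over 44 arrays (vertical axis) by group and labelled sex (horizontal axis), with 1 point per array and the mean ± SD. The PKCε FG-3149 females averaged 0.03 and the PKCε FG-3149 males -0.35, while the PKCε IgG females and males averaged -0.45 and -0.40.

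The peptide genes were lower under FG-3149 in PKCε hearts by amounts that passed or not with the arrays that set the error. Nppa differed by -0.39 ± 0.43 and Nppb by -0.23 ± 0.10 in the fit of all 4 groups (SE; limma, adjusted p = 0.665 and 0.157). The spread in that fit is shared with the FVB hearts, where Nppa had an SD of 0.97 under FG-3149 and 1.92 under IgG, against 0.34 and 0.20 in the PKCε hearts under the same treatments. In a fit of the 22 PKCε arrays alone, which 9.41% of all genes passed, Nppa differed by -0.39 ± 0.07 (adjusted p = 0.00157) and Nppb by -0.23 ± 0.06 (adjusted p = 0.0145), while Corin did not pass (adjusted p = 0.0897). For Nppa 7 of the 12 PKCε FG-3149 hearts lay below every PKCε IgG heart, and for Nppb 5 did. The Gapdh 3' minus 5' difference fell between the same groups, as given above, and with it as a covariate in the fit of all 4 groups the differences were -0.18 for Nppa (adjusted p = 0.914) and -0.30 for Nppb (adjusted p = 0.127).

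Npr1 (0.06 ± 0.05), Npr2 (0.18 ± 0.11) and Npr3 (-0.17 ± 0.27) did not pass for the antibody in PKCε hearts (limma, adjusted p between 0.347 and 0.78). Npr2 had an SD of 0.41 in PKCε FG-3149 hearts against 0.17 in PKCε IgG hearts. Of the 8 ligand and processing genes and the 17 cyclic GMP genes none passed by limma, with 3 of each list at an unadjusted p under 0.05. Beside the 8.82% of all genes that passed, 3 of the 25 promoter regulators did: Hopx (0.73 ± 0.12, adjusted p = 9.04e-05) and Jarid2, a cofactor of gene repression (0.40 ± 0.08, adjusted p = 0.00157), were higher, and Mef2c (-0.23 ± 0.08, adjusted p = 0.0441) was lower. Of the ventricular stress genes Fhl1, a LIM protein of the sarcomere, was lower (-0.55 ± 0.08, adjusted p = 2.95e-05) and the other 4 did not pass.

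In nontransgenic hearts Nppa and Npr3 were lower under the antibody, and the atrial genes were lower with them. Between FVB FG-3149 and FVB IgG hearts 9% of all genes passed, 4.43% higher and 4.57% lower, and 2 of the 6 genes passed, both lower. Npr3 had log2 ratios of -0.99, -0.48 and 0.10 in FVB FG-3149 hearts, against -0.02, 0.70 and 3.39 in FVB IgG hearts. Of the 12 FVB FG-3149 hearts 10 lay below every FVB IgG heart. The difference was -1.48 ± 0.27 (SE; limma, adjusted p = 0.000279), which left 35.8% of the FVB IgG level. Males alone gave -0.77 (adjusted p = 0.0975), and the other probe sets gave -0.64 ± 0.22 (adjusted p = 0.0577) and -0.41 ± 0.22 (adjusted p = 0.269). By its most variable probe set Npr3 still passed with the atrial level as a covariate and without the arrays of atrial level above 4. It was the only 1 of the 6 genes to pass in these fits, which 2.15% and 1.75% of all genes passed.

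Nppa differed by -1.79 ± 0.44 between FVB FG-3149 and FVB IgG hearts (SE; limma, adjusted p = 0.00636). The atrial level averaged -0.55 ± 2.59 in FVB FG-3149 hearts (SD, n = 12) against 4.28 ± 3.89 in FVB IgG hearts (SD, n = 10), a difference of -4.83 (permutation p = 0.00316, adjusted p = 0.0126). Sln (-4.92), Myl7 (-5.01) and Myl4 (-4.00) each passed. With them included, 7 of the 10 atrial muscle markers passed, all lower. With the atrial level as a covariate Nppa differed by -0.78 (adjusted p = 0.425), and without the arrays of atrial level above 4 by -0.35 (adjusted p = 0.757). The covariate had a slope shared by both lines, whereas the Nppa slope was 0.01 in PKCε and 0.41 in FVB hearts. The -0.78 therefore does not estimate a difference at equal atrial level in FVB hearts. In males the Nppa difference had the other sign, 0.63 (adjusted p = 0.613). A fit of the FVB arrays alone, which 6.54% of genes passed, gave -1.79 (adjusted p = 0.0819).

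Nppb (0.13 ± 0.10), Npr1 (-0.10 ± 0.05), Npr2 (0.01 ± 0.11) and Corin (0.04 ± 0.09) did not pass in FVB hearts (limma, adjusted p between 0.246 and 0.979). In males alone Nppb was higher by 0.50 (adjusted p = 0.0102), with the 3 FVB IgG males between -1.03 and -0.96. Among the related genes Dpp4, a peptidase that trims the B-type peptide, was lower (-0.66, adjusted p = 0.037), as was Mrvi1, the kinase substrate also called Irag1 (-0.39, adjusted p = 0.0406). Mef2c (-0.27, adjusted p = 0.022) and Tbx20, a T-box factor (-0.40, adjusted p = 0.0269), were lower too. Zfpm2, a GATA cofactor, was higher by 0.31 (adjusted p = 0.0266). None of the 5 ventricular stress genes passed, and none had an unadjusted p under 0.05.

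The antibody's effect in PKCε hearts minus its effect in FVB hearts passed for 3.86% of all genes and for Npr3 alone of the 6, at 1.31 ± 0.38 (SE; limma, adjusted p = 0.0385). It was 0.33 and 0.29 by the other Npr3 probe sets and 0.76 with the atrial level as a covariate (adjusted p = 0.147). Leaving out any 1 of 12 single arrays also ended the call (adjusted p up to 0.0635). Nppb gave -0.36 ± 0.14 (adjusted p = 0.162) and Nppa 1.40 ± 0.61 (adjusted p = 0.234), and the Nppa value turned negative in males alone (-1.11) and without the arrays of atrial level above 4 (-0.048). Without FVB IgG replicate 2 Nppb gave -0.43 (adjusted p = 0.0426).

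Nppa, Nppb and Npr2 were higher in females in a fit of the transgenic line alone, but not in the fit of all 4 groups. Over all groups 15.8% of genes passed for females minus males, and of the 6 genes Corin passed, at 0.18 ± 0.06 (SE; limma, adjusted p = 0.0438), a call that was lost without any 1 of 18 single arrays. Among PKCε IgG hearts Nppa had 0.62, 0.74 and 0.82 (lowest, median and highest) in 5 females against 0.25, 0.42 and 0.46 in 5 males, with no overlap. How many of all genes separated in this way was not counted. These females had mouse numbers 322 to 362 and these males 192 to 196, so sex and number block cannot be told apart in this group. Among PKCε FG-3149 hearts it had -0.01, 0.48 and 0.58 in 6 females against -0.33, -0.12 and 0.10 in 6 males. In the fit of PKCε arrays alone, which was chosen after these values were seen and which 22.5% of genes passed, females were higher by 0.45 ± 0.07 for Nppa (adjusted p = 0.000229), 0.16 ± 0.06 for Nppb (adjusted p = 0.0454) and 0.33 ± 0.11 for Npr2 (adjusted p = 0.0404). Corin did not pass there (0.18 ± 0.10, adjusted p = 0.157). In the fit of 8 means of group and sex none of the 3 genes passed between the sexes of either PKCε group (adjusted p for Nppa 0.555 under FG-3149 and 0.647 under IgG), where 1.75% and 12.2% of all genes passed. In the fit of PKCε arrays alone, 3 of 6 endocardium and 3 of 5 fibroblast markers were also higher in females, and their part in these differences was not tested. In the same fit Sln, Myl7 and Myl4 did not pass between the sexes (adjusted p between 0.535 and 0.768).

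Nppa followed the atrial level in the nontransgenic line and not in the transgenic line. Among FVB IgG hearts Pearson's r was 0.973 (permutation p = 2e-05, adjusted p = 0.00048 over 24 relations) and Spearman's rho 0.964 (p = 2e-05), and r was 0.997 without the 2 arrays farthest from the median atrial level. Among FVB FG-3149 hearts r was 0.791 (permutation p = 0.00344, adjusted p = 0.0206) and rho 0.441 (p = 0.154), and without the 2 farthest arrays r was 0.372, so that relation rested on those arrays. Among PKCε FG-3149 hearts r was 0.191 (permutation p = 0.551) and rho 0.301 (p = 0.341), and among PKCε IgG hearts r was 0.169 (permutation p = 0.631) and rho 0.115 (p = 0.758), although 4 PKCε hearts had an atrial level above 4.

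Expressed as a slope, in a limma fit chosen after these relations were seen, Nppa changed by 0.01 ± 0.03 per log2 unit of the atrial level in PKCε hearts (adjusted p = 0.954, 0.202% of genes passed) and by 0.41 ± 0.03 in FVB hearts (adjusted p = 1.75e-12, 6.13% passed). The difference between the slopes was -0.40 ± 0.05 (adjusted p = 7.82e-07). Nppa was the only one of the 12394 genes, 0.00807%, whose difference between the slopes passed in this fit, where 1354 genes had an unadjusted p under 0.05. Nppa stayed the only one to pass without any single array and under the other log2 scalings tried. On the linear ratio scale no gene passed by limma (1316 had an unadjusted p under 0.05), and Nppa had the lowest p (p = 2.77e-05, adjusted p = 0.216). The highest Nppa values were 0.82 in PKCε IgG and 0.89 in FVB IgG hearts, and whether the probe set was near its upper limit there was not tested.

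**Figure D4:**
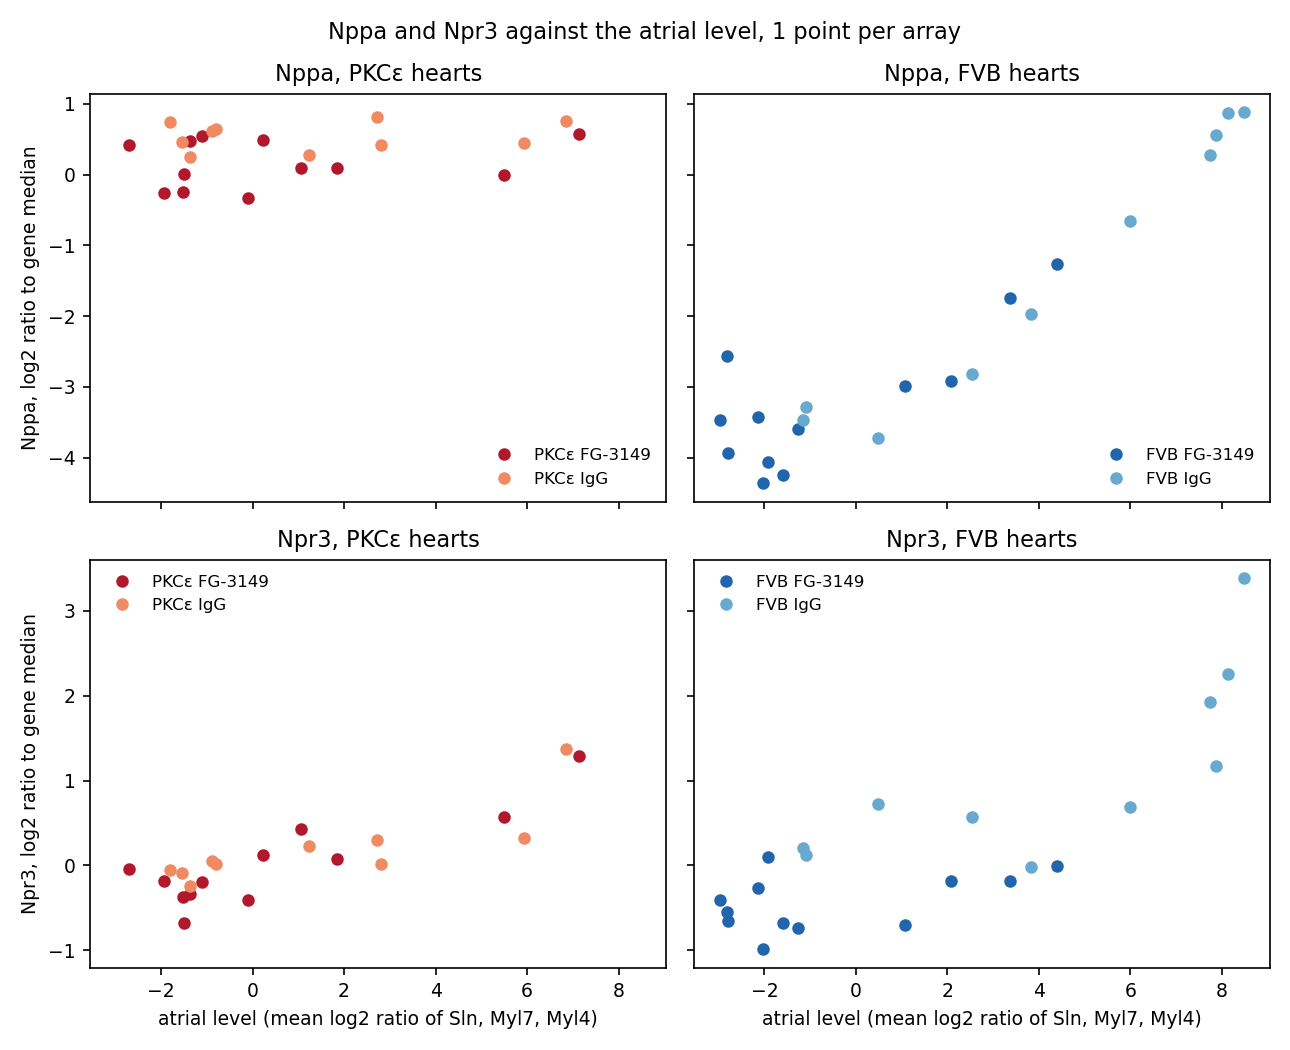
Log2 ratios of Nppa (top) and Npr3 (bottom) against the atrial level, an average over Sln, Myl7 and Myl4 in log2 units (horizontal axis), for PKCε hearts (left) and FVB hearts (right), with 1 point per array. Nppa rose along the atrial level in FVB hearts, with a slope of 0.41, and stayed within -0.33 to 0.82 in PKCε hearts. Npr3 rose with the atrial level in both PKCε groups and in FVB IgG hearts. No male FVB FG-3149 heart had an Npr3 value above -0.0099, and these males include that group's heart of highest atrial level, 4.40.

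Npr3 was related to the atrial level in both PKCε groups and among FVB IgG hearts. Pearson's r was 0.872 among PKCε FG-3149 hearts (permutation p = 0.00057, adjusted p = 0.00536, rho 0.671, p = 0.0194), 0.809 among PKCε IgG hearts (permutation p = 0.00067, adjusted p = 0.00536, rho 0.818, p = 0.00575) and 0.767 among FVB IgG hearts (permutation p = 0.00806, adjusted p = 0.0322, rho 0.806, p = 0.00743). Among FVB FG-3149 hearts it was 0.456 (permutation p = 0.136, rho 0.266, p = 0.405). Without the 2 farthest arrays r was 0.553, 0.704, 0.718 and 0.117 in these groups in turn, and none passed the adjustment, so the first 3 relations rested in part on those arrays. The slope was 0.13 ± 0.03 in PKCε hearts (limma, adjusted p = 0.0687) and 0.16 ± 0.03 in FVB hearts (adjusted p = 0.00182), and their difference did not pass (-0.03 ± 0.04, adjusted p = 0.87). As a description that pools arrays of all 4 groups, r was 0.888 over the 10 arrays with an atrial level above 4 and 0.465 over the other 34.

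Corin correlated with the atrial level among FVB IgG hearts alone of the 4 groups (r = 0.762, permutation p = 0.00493, adjusted p = 0.0237, rho 0.915, p = 0.00051), and r was 0.733 without the 2 farthest arrays (adjusted p = 0.327). Whether this relation differed from those in the other groups was not tested. Nppb, Npr1 and Npr2 had no relation that passed in any group, with r between -0.578 and 0.44.

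Nppa and Nppb were set against each other within each group. Pearson's r was 0.688 among PKCε FG-3149 hearts (permutation p = 0.0132, adjusted p = 0.0526 over 4 groups, rho 0.594, p = 0.0457) and 0.856 without the 2 farthest arrays. It was 0.632 among PKCε IgG hearts (permutation p = 0.0513, rho 0.636, p = 0.0544, r without 2 arrays 0.62). It was 0.152 among FVB FG-3149 hearts (permutation p = 0.647, rho 0.168, p = 0.604, r without 2 arrays 0.53) and 0.505 among FVB IgG hearts (permutation p = 0.142, rho 0.442, p = 0.206, r without 2 arrays 0.254). No group passed after adjustment.

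The genes most like each one over the 44 arrays are given as a description, since the points share the 4 groups. Nppa was most like Ints6, a subunit of the Integrator complex (r = 0.905), Gpx3, the secreted glutathione peroxidase (0.901), Gsn, gelsolin (0.898), Ecm1 (0.898) and Tgfbi (0.895). After removal of group and sex means it was most like Olfm1 (0.805), Gpx3 (0.801), Pam, a peptide-amidating enzyme abundant in atrial muscle (0.793), Dkk3, an atrial marker (0.792), and Slc7a7 (0.773). Gpx3 was thus near Nppa with and without the group differences.

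Nppb was most like Lman1l (r = 0.905), Azin1, the antizyme inhibitor (0.905), Kdelr3 and P4hb, of the endoplasmic reticulum (0.887 and 0.879), and Medag (0.887). After removal of the means it was most like Tmem39a (0.78), Adgre4 (0.692) and Bmp10, an atrial growth factor (0.69). Spearman's rho was lower for these genes, at 0.607, 0.547 and 0.437 in turn. Corin was most like Smarcal1 (0.858), Neo1, the netrin receptor neogenin (0.842), and Rgs2 (0.836), and Rgs2 also led after removal of the means (0.685). Npr3 was most like Igfbp5, an insulin-like growth factor binding protein (0.926), and Sdc4, syndecan 4 (0.909), and after removal of the means Golm1 led (0.91), with Dkk3 among the first 5 (0.876). Npr2 was most like Mlec, malectin, with (0.839) and without (0.869) the removal of means, and for Npr1 the highest r was 0.575, with Dnajc7, a co-chaperone.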

How the data were processed

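RNA of 44 left ventricles was hybridized to 1 array each. Per the series design text and the submitters' processing notes, the authors used GCRMA on the scans and then scaled every probe set to its own median across the arrays (GeneSpring GX 7.3.1), so the deposited values are linear ratios, whose log2 was taken here. The ratios run from 0.01 to 1104, hold neither brightness nor detection, and no genome build is given in the sources used here. The number of arrays limits the precision. Probe sets were named through the platform annotation: 20393 had 1 gene symbol, 691 several and 1606 none, and each gene kept its probe set of largest SD.

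Group means and a sex term were fitted to 12394 genes with limma 3.58.1 in R 4.3.3 (lmFit, eBayes), with Benjamini-Hochberg adjustment over all of them and a call at an adjusted p under 0.05. The fit was tested on simulated data. Relations to the atrial level used two-sided permutation tests with 100000 resamples, or full enumeration (an exact permutation test) over 8 arrays, in Python 3.11.15. Alternatives included scalings, covariates, single sexes and each array left out. The members and lists were chosen with earlier results of these data known. Named genes are all members, Sln, Myl7 and Myl4, up to 3 called genes of lowest p per list, and the 5 genes most correlated with each member. Replicate numbers did not pair the arrays: of 10 same-numbered pairs, at most 4 in any comparison deviated together at a correlation above 0.1. Promoters were read from RefSeq's GRCm38.p6 table. Protein sequences and gene coordinates were not used here.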

Additional observations from a re-analysis of the deposited data

Results flagged for a closer look

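PKCε IgG replicate 6, a female heart with an atrial level of 6.86, stood apart from the other 9 hearts of its group for 2 genes. Its Npr1 value of -0.49 was the lowest, and its gap to the next heart took 0.78 of the group's range. Its Npr3 value of 1.37 was the highest, with a gap of 0.654 of the range. Both flags are of the same heart. They come from 20 sets of 10 hearts, which are 10 related quantities in each of 2 groups, and chance alone marks about 1 in 20 sets.

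The antibody's effect on Npr3 in PKCε hearts minus that in FVB hearts was 1.31 (limma, adjusted p = 0.0385). In PKCε hearts alone it was -0.17 and in FVB hearts -1.48, and the atrial level differed in the FVB hearts as well, by -4.83. The adjusted p ranged up to 0.523 over the alternatives.

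The slope of Nppa on the atrial level was 0.01 in PKCε hearts and 0.41 in FVB hearts, and the difference between the lines was -0.399 (limma, adjusted p = 7.82e-07). The same difference was -0.03 for Npr3, -0.03 for Nppb and 0.0015 for Corin, with adjusted p of 0.87, 0.583 and 0.988.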

How the results depend on the processing

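The 71 results were recomputed under 2352 alternatives, of which 2157 left the direction and the side of the threshold as they were, or a count of called genes within 1.5 times. Of the rest, 89 ended a call, 20 added one, 46 moved a count further and 40 turned the direction, 1 of them of a value that had passed. The cause of these shifts was not tested. The ratios hold no brightness, so how far a probe set lay above background cannot be given. Slopes on the atrial level, their alternatives, the sex alternatives and the fit of PKCε arrays alone were chosen after seeing the data. With the 25% of genes of lowest SD left out, Npr1 had no value.

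For PKCε IgG minus FVB IgG, females alone gave 1.22 for Nppa (adjusted p = 0.0698), -0.21 for Npr1 (0.0531) and -1.04 for Npr3 (0.0679), and males alone -0.18 for Npr1 (0.0712) and -0.42 for Npr3 (0.188), so that 2 and 3 genes passed in place of 5. Of all genes 36.8% passed in females alone and 17.5% in males alone, against 42.2%. Npr3 also missed the threshold as the mean of its probe sets (-0.53), with the atrial level as a covariate (-0.45), without the arrays of atrial level above 4 (-0.28) and in a fit of these groups alone (-0.80). Without single arrays Npr2 ran from 0.18 to 0.29 and passed only without FVB IgG replicate 6.

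For PKCε FG-3149 minus PKCε IgG, the fit of these groups alone gave -0.39 for Nppa, -0.23 for Nppb and 0.26 for Corin, and 2 genes passed in place of 1. Of all genes 9.41% passed in that fit, against 8.82%. Corin did not pass with no sex term (0.26), with array medians set to 0 (0.25), after quantile normalization (0.22), in males alone (0.046), without the arrays of atrial level above 4 (0.13), with the Gapdh covariate (0.21) and without the arrays with lung markers (0.27). In each of these 0 of the 6 genes passed by limma, and 1 or 2 had an unadjusted p under 0.05. Of all genes 6.75%, 8.04%, 5.86%, 0.46%, 4.26%, 3.87% and 3.55% passed in these fits in turn. Without single arrays Corin ran from 0.22 to 0.31 and the number of genes that passed from 0 to 1. The call ended without PKCε FG-3149 replicate 1, 6, 7, 8, 9, 10 or 12, or PKCε IgG replicate 5, 6, 7, 8 or 10.

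For FVB FG-3149 minus FVB IgG, males alone gave 0.63 for Nppa, of the other direction, 0.50 for Nppb, which then passed, and -0.77 for Npr3, which did not. Nppa did not pass with the atrial level as a covariate (-0.78), without the arrays of atrial level above 4 (-0.35) or in a fit of these groups alone (-1.79). In each of these 4 fits 1 gene passed in place of 2. Of all genes 0.46%, 2.15%, 1.75% and 6.54% passed in these fits in turn, against 9%.

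For PKCε FG-3149 minus FVB FG-3149, Npr2 did not pass in males alone (0.14) nor Corin in females alone (-0.19), while Npr3 passed without the arrays of atrial level above 4 (0.31) and in a fit of these groups alone (0.46). For the antibody's effect in PKCε hearts minus that in FVB hearts, Nppb passed with array weights (-0.46), in males alone (-0.71) and without the arrays of atrial level above 4 (-0.46). Npr3 did not pass as the mean of its probe sets (0.65), in females (1.84) or males (0.54) alone, with the atrial level as a covariate (0.76), without the arrays of atrial level above 4 (0.59) and without the arrays with lung markers (1.25). The number of genes that passed was 2 with array weights, where 4.29% of all genes passed, against 3.86%. It was 0 by limma in females alone, with the covariate, for the mean of probe sets and without the arrays with lung markers, where 3 or 4 had an unadjusted p under 0.05. Of all genes 0.888%, 2.67%, 3.86% and 3.01% passed in these fits in turn. Without single arrays Npr3 ran from 1.08 to 1.44, Nppb from -0.43 to -0.30 and the number that passed from 0 to 2. The Npr3 call ended without PKCε FG-3149 replicate 7, 9 or 11, PKCε IgG replicate 4, 7, 8 or 10, FVB FG-3149 replicate 6, 10 or 11, or FVB IgG replicate 1 or 3, and Nppb passed without FVB IgG replicate 2.

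For females minus males, PKCε arrays alone gave 0.45 for Nppa, 0.16 for Nppb and 0.33 for Npr2, which then passed, and 0.18 for Corin, which did not. Corin did not pass either with the atrial level as a covariate (0.16), without the arrays of atrial level above 4 (0.085) and without the arrays with lung markers (0.17). Without single arrays Corin ran from 0.15 to 0.19, losing its call in 18 of 44 cases, and Nppb from 0.15 to 0.20, passing without FVB FG-3149 replicate 12 or FVB IgG replicate 4.

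Of 10 same-numbered pairs per comparison, 0 to 4 had deviations that correlated above 0.1, and at most 1 array correlated best with its own number, so the arrays share only a number. With a replicate block, the number that passed was 0 in place of 1 for PKCε FG-3149 minus PKCε IgG (Corin 0.27, adjusted p = 0.0781) and 0 in place of 1 for the antibody's effect in PKCε hearts minus that in FVB hearts (Npr3 1.30, adjusted p = 0.0592), by limma, with 2 and 4 genes at an unadjusted p under 0.05. With the block 6.39% and 3.28% of all genes passed in these comparisons, against 8.82% and 3.86%. For females minus males the block gave 0.17 for Corin, which did not pass, and -0.10 for Npr1, which did.

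The difference between the Nppa slopes was -0.11 on the ratio scale (adjusted p = 0.216). The Npr3 slope in PKCε hearts was 0.12 after quantile normalization and passed there (adjusted p = 0.000788). Without single arrays it ran from 0.12 to 0.15, and it passed without PKCε IgG replicate 5 or FVB IgG replicate 2 or 5. After quantile normalization r with the atrial level no longer passed for Nppa among FVB FG-3149 hearts (0.565) and for Npr3 (0.572) and Corin (0.708) among FVB IgG hearts. Spearman's rho did not pass for Npr3 among PKCε FG-3149 hearts (0.671) and for Nppa among FVB FG-3149 hearts (0.441). Without the 2 arrays farthest from the median atrial level, r did not pass for Npr3 among PKCε FG-3149 (0.553), PKCε IgG (0.704) and FVB IgG hearts (0.718), for Nppa among FVB FG-3149 hearts (0.372) and for Corin among FVB IgG hearts (0.733).

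The other turns of direction were of values that passed neither before nor after. For FVB FG-3149 minus FVB IgG, Nppb was -0.090 and Corin -0.0090 in females alone. Npr2 was -0.017 with no sex term, -0.00705 with array medians set to 0, -0.025 after quantile normalization, -0.013 with array weights, -0.040 in females and -0.030 in males alone and -0.036 in a fit of these groups alone, and it ran from -0.042 to 0.069 without single arrays. For PKCε FG-3149 minus FVB FG-3149, Npr1 was 0.0016 with array medians set to 0. For the antibody's effect in PKCε hearts minus that in FVB hearts, males alone gave -1.11 for Nppa and -0.066 for Corin, and the arrays of atrial level at or below 4 gave -0.048 and -0.029. For females minus males, Nppa was -0.13 after quantile normalization and Npr3 -0.074 without the arrays of atrial level above 4. The Nppa slope in PKCε hearts ran from -0.0010 to 0.022 without single arrays. The difference between the Npr3 slopes was 0.048 after quantile normalization and ran from -0.041 to 0.013 without single arrays. Among PKCε FG-3149 hearts, r with the atrial level without the 2 farthest arrays was -0.044 for Nppa, 0.235 for Nppb, 0.093 for Npr1 and -0.511 for Corin. There, Nppb gave 0.121 after quantile normalization and a rho of 0.098, Npr1 gave 0.069 with array medians set to 0 and 0.078 after quantile normalization, and Npr2 gave 0.0060 with array medians set to 0. Among PKCε IgG hearts r without the 2 farthest arrays was 0.011 for Npr1, -0.034 for Npr2 and 0.517 for Corin. Among FVB FG-3149 hearts Corin gave 0.530 without the 2 farthest arrays and Npr2 a rho of -0.259, and among FVB IgG hearts Npr1 gave 0.018 after quantile normalization.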

Other observations

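Cell type marker lists gave the setting in which the peptide genes were measured. In PKCε IgG against FVB IgG hearts, where 42.2% of all genes passed, 20.7% higher and 21.5% lower, all 5 measured fibroblast markers were higher (median 0.58), led by Lum, a collagen-binding proteoglycan (1.12, adjusted p = 4.34e-10), and Col1a1, a collagen chain (1.46, adjusted p = 6.78e-08). All 4 measured adipocyte markers were lower (median -1.22), as were 4 of 7 ventricular muscle markers (median -0.12). Of 7 pericyte and smooth muscle markers 1 was higher and 3 were lower. Of the 6 measured endocardium markers and the 6 endothelium markers 1 each was higher, and of 3 epicardium and 3 lung markers none passed by limma (1 of each at an unadjusted p under 0.05).

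In PKCε FG-3149 against PKCε IgG hearts, where 8.82% of all genes passed, no fibroblast, adipocyte, atrial, epicardium, endothelium or lung marker passed by limma (unadjusted p under 0.05 for 1 atrial, 1 endothelium and 1 lung marker), while 3 of 7 pericyte and smooth muscle markers and 2 of 7 ventricular muscle markers were higher and 1 endocardium marker, Vwf, was lower (-0.68, adjusted p = 0.03). In FVB FG-3149 against FVB IgG hearts, where 9% of all genes passed, 3 of 4 adipocyte markers and 1 endocardium marker, Vwf again (-0.74, adjusted p = 0.0193), were lower, and of the pericyte and smooth muscle markers 3 were higher and 1 lower. No fibroblast, endothelium, ventricular, epicardium or lung marker passed there by limma, with an unadjusted p under 0.05 for 1, 1, 4, 2 and 0 of them.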
